A study of Homo sapiens with 6 samples.

Results

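Transcripts of 10 inflammatory cytokine and CXCL chemokine genes (IL6, CXCL8, CXCL1, CXCL2, CXCL3, IL1A, IL1B, LIF, IL24 and CSF2) were followed in MDA-MB-231 cells, an established human triple-negative breast cancer line with a mesenchymal phenotype, after exposure to TCI04, whose structure the sources used here do not give. The members were every probe set that the platform annotation assigns to 1 of these symbols and to no other gene. This gave 14 of the 54675 probe sets on the array, for 9 of the 10 genes. For CSF2 no probe set met the rule, and it was not analysed here. Cells grown in medium with serum received 50 µM TCI04 or phosphate-buffered saline (PBS) for 48 h, and total RNA was hybridised to 3 Affymetrix arrays per group. Whether replicates were separate cultures is not stated in the labels, and the p-values rest on a spread between arrays that may be only technical.

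CXCL1, CXCL2, CXCL3 and CXCL8 are chemokines that recruit neutrophils through the receptors CXCR1 and CXCR2. IL1A and IL1B signal through IL1R1 and its partner IL1RAP to NF-kB and MAP kinases, and so raise the chemokines, IL6, LIF and CSF2. IL6 and LIF share the receptor subunit IL6ST (gp130) and activate STAT3, and several of these genes are known to be transcribed constitutively in MDA-MB-231 cells under the control of NF-kB and AP-1.

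Parts of the members' promoters are printed here because the chemokine genes are close paralogs. A further reason is that FOS, a subunit of AP-1, was the only gene past the adjusted p threshold of 0.05. Any link between FOS and these promoters was not tested. The promoters come from RefSeq (GRCh38.p14), which gave a promoter (250 bases before to 50 after the start site) for 9 of the 10 genes. The longest word that the promoters of all 4 CXCL genes hold before the start site was GGAATTTCC, of 9 bases, which has the form of an NF-kB binding motif. Each stretch runs 5′ to 3′ on the strand of its gene, with this word or the AP-1 motif in capitals. The IL6 stretch does not hold the word itself, and its capitals mark a match with 1 differing base. The lines are, in order, chr4:73869290-73869348 on the plus strand, chr4:74099239-74099297 on the minus strand, chr4:74038734-74038792 on the minus strand, chr4:73740453-73740511 on the plus strand and chr7:22727103-22727161 on the plus strand for the shared word, then chr4:73740407-73740463 on the plus strand and chr2:112784494-112784530 on the minus strand for the AP-1 motif.
CXCL1 (shared word): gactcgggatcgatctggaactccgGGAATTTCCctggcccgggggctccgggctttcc
CXCL2 (shared word): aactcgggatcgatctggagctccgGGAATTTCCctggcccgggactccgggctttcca
CXCL3 (shared word): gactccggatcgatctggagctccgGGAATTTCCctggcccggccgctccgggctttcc
CXCL8 (shared word): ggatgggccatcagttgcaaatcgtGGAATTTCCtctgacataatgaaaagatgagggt
IL6 (shared word): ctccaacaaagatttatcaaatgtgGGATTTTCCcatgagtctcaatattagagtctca
CXCL8 (AP-1): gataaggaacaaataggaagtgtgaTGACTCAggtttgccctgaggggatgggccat
IL1A (AP-1): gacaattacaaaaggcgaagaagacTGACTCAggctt

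The shared word began 78, 77 and 78 bases upstream of the start sites of CXCL1, CXCL2 and CXCL3 and 91 bases upstream of that of CXCL8. Over the 34 bases from the left edge of the window to the end of the word, each pair among CXCL1, CXCL2 and CXCL3 was identical at 32. These bases include the 9 of the word, which are identical by its choice. Over the full 59 bases, compared position by position without gaps, CXCL1 matched CXCL2 at 48 and CXCL3 at 55. CXCL2 matched CXCL3 at 47. Searched on both strands, the word occurred in 0.461% of the 35116 promoters in the table, and among the members in those of the 4 CXCL genes that chose it. With at most 1 differing base it occurred in 6.79% of promoters and in those of 7 of the 9 member genes, IL6, IL1A and CSF2 being the further ones. The match in IL6, GGATTTTCC, began 72 bases upstream of its start site. TGANTCA, the AP-1 motif, occurred in 7.71% of promoters and, among the members, in those of CXCL8 and IL1A. RefSeq gave more than 1 promoter for IL1A, and these overlap. Each held both TGACTCA and TGAGTCA, at the same places in the genome. The TGAGTCA match began 55 bases upstream of 1 start site and at base 39 after the other. Only the TGACTCA match that began 12 bases upstream of 1 of these start sites is printed. These matches describe the letters of the windows, and the data hold no measurement of binding.

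The values are MAS5 signals, which combine the probes of each probe set into 1 linear value, and the authors' table gave the same trimmed mean of 500.1 on every array. The mesenchymal markers of the line were measured (7 of 7 above the filter on dim probe sets, VIM at 30225 ± 1966 with PBS, SD, n = 3). ESR1 lay near the filter level at 29.3 ± 16.5, and PGR and CDH1 lay below it. Of 8 luminal markers 6 were above the filter, KRT18, KRT8 and GATA3 among them, as were 3 of 11 measured leukocyte, 2 of 7 fibroblast and 2 of 5 endothelial markers. None of these markers passed the adjusted threshold. TCI04 replicate 3 stood apart in RNA quality, with a 3′ to 5′ signal ratio of ACTB of 3.33 against 1.64 to 1.72 on the other 5 arrays. Values without this array are therefore given beside the members' results, and its part in them was not otherwise tested. The ACTB ratio was 1.67 ± 0.05 with PBS and 2.25 ± 0.94 with TCI04, and the GAPDH ratio 1.04 ± 0.05 and 1.09 ± 0.12 (SD, n = 3 each). A two-sided exact permutation test of the log2 ratios gave p = 0.3 for ACTB and p = 0.6 for GAPDH. With 3 against 3 arrays this test cannot give a p below 0.1, so it could not decide whether the ratios differed.

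The comparison asked whether TCI04 shifted these transcripts. None of the members passed the test in either direction, and in 13 of the 14 probe sets the TCI04 and PBS arrays overlapped. Of the 14 probe sets, 10 (for 8 genes) had a mean level above the filter, set at the 40th percentile (a signal of about 33.9), and were tested. The log2 fold changes of these 10 ran from -0.55 (IL1B) to 0.60 (CXCL3), each the difference TCI04 minus PBS on the scale log2(signal + 10.96), on which changes of dim probe sets appear smaller than they are. Their adjusted p-values were 0.697 to 0.982 (limma, Benjamini-Hochberg over 32746 probe sets), and 0 of 10 had an unadjusted p under 0.05. Over all probe sets tested, 0.00305% passed the adjusted threshold of 0.05 (1 probe set, for FOS) and 7.08% had an unadjusted p under 0.05. Lying above the filter does not show expression, as the leukocyte markers ITGAM (78.8) and CD3E (75.9, PBS means) did so too. CXCL1 (84.9) and 39402_at of IL1B (80.3) were near these levels. CXCL3 (41.6) and 208200_at of IL1A (48.6) lay below the median of all values, 63.6. Whether such signals exceed background was not tested.

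Among the 10 tested probe sets, 4 had a higher and 6 a lower mean with TCI04, with a median log2 fold change of -0.04, beside -0.03 over all probe sets tested. That split depended on array scaling. Quantile normalization made it 5 and 5, and median centring made it 8 and 2. Median centring also moved the median of all probe sets from -0.03 to 0.13. The share of all probe sets with a higher mean was 43.8%, and became 52.6% with quantile normalization and 71.5% with median centring. No common direction of the family is therefore given.

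**Figure D1:**
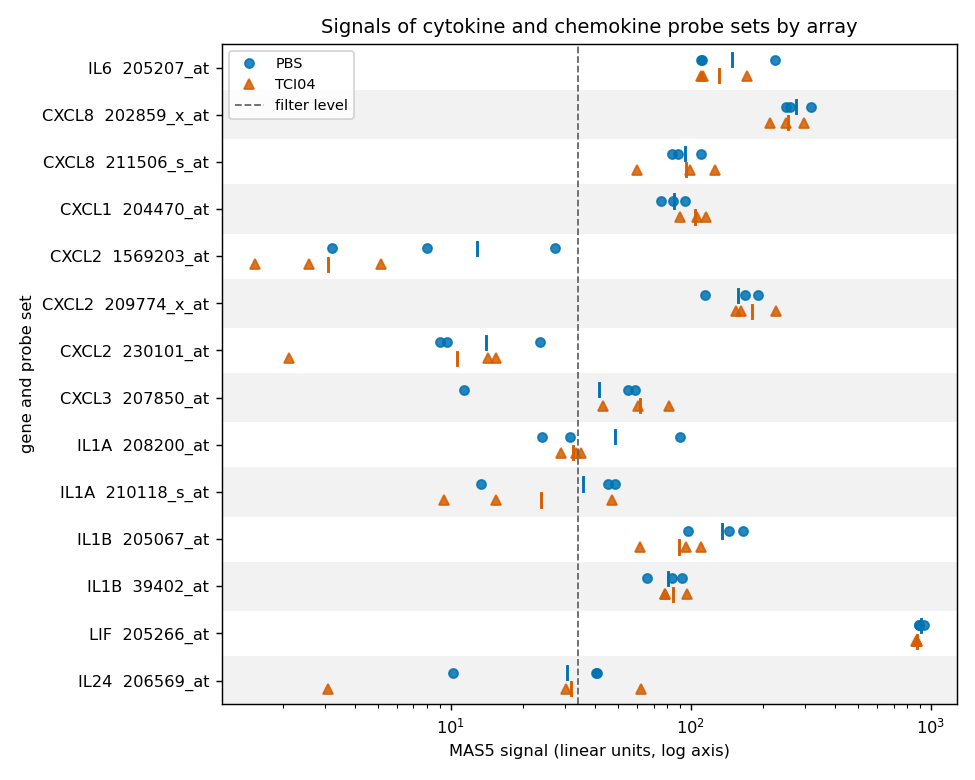
MAS5 signal of each of the 14 probe sets on the 3 PBS arrays (circles) and the 3 TCI04 arrays (triangles), on a log axis, with vertical bars at the group means and a dashed line at the filter level of 33.9. The groups overlap in every probe set except LIF, whose TCI04 arrays (867 to 881) lie just below its PBS arrays (892 to 938).

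CXCL8 (interleukin-8) was measured by a pair of probe sets, and neither differed between the groups. In 202859_x_at the signals were 260, 317 and 250 with PBS and 214, 250 and 297 with TCI04 (replicates 1, 2 and 3 in this order, here and in the sentences that follow). The highest array was a PBS array and the lowest a TCI04 array, and the remaining 4 were interleaved. This amounted to a log2 fold change of -0.12 (standard error, SE, 0.16; 95% interval -0.48 to 0.24; adjusted p = 0.867 in limma), so the interval held a fall of up to 1.39-fold and a rise of up to 1.18-fold. The dimmer 211506_s_at gave 88.4, 111 and 83.8 with PBS and 99.1, 59.6 and 127 with TCI04. Its lowest and highest signals were both from TCI04 arrays, and its log2 fold change was -0.03 (95% interval -0.64 to 0.58). Without TCI04 replicate 3 the values of the 2 probe sets were -0.24 and -0.25.

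CXCL1, CXCL2 and CXCL3 encode the GRO chemokines, near-identical ligands of CXCR2. CXCL1 (204470_at) gave signals of 84.5, 75.2 and 94.96 with PBS and 107, 90.5 and 116 with TCI04. TCI04 replicates 1 and 3 lay above every PBS array, and TCI04 replicate 2 lay below PBS replicate 3. The shift was 0.27 on the log2 scale (SE 0.22, 95% interval -0.21 to 0.74, adjusted p = 0.776 in limma), and 0.19 without TCI04 replicate 3.

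The brightest probe set of CXCL2, 209774_x_at, gave 168, 115 and 190 with PBS and 162, 154 and 226 with TCI04. The highest signal was that of TCI04 replicate 3 and the lowest that of PBS replicate 2, with the other arrays between 154 and 190. The log2 fold change of 0.19 (95% interval -0.30 to 0.69, adjusted p = 0.840 in limma) went to 0.03 without TCI04 replicate 3 and to -0.01 without PBS replicate 2. The suffix _x_at marks probe sets with probes that can bind other sequences, so RNA of a paralog could add to this signal, which was not tested. The other probe sets of CXCL2 were too dim to test. In 1569203_at the signals were 7.98, 27.3 and 3.20 with PBS and 2.57, 1.53 and 5.13 with TCI04, and in 230101_at they were 23.5, 9.62 and 9.03 with PBS and 2.13, 15.5 and 14.3 with TCI04. The groups overlapped in both, and all these signals lay below the filter level.

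CXCL3 (207850_at) had the largest positive log2 fold change of the 10 tested probe sets and the widest interval. Its signals were 11.4, 58.6 and 54.8 with PBS and 60.1, 81.5 and 42.9 with TCI04. PBS replicate 1 stood far below the other 5 arrays, and the remaining PBS arrays lay inside the TCI04 range. On the log2 scale the shift was 0.60 (SE 0.45, 95% interval -0.41 to 1.61, adjusted p = 0.762 in limma). It dropped to 0.07 without PBS replicate 1, and was 0.79 without TCI04 replicate 3.

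IL1B, the secreted interleukin-1 that needs cleavage by caspase-1, was the member with the smallest p, and its probe sets disagreed. In 205067_at the signals were 164, 144 and 97.1 with PBS and 95.2, 110 and 61.4 with TCI04. TCI04 replicates 1 and 3 were below every PBS array, but TCI04 replicate 2 was above PBS replicate 3. The shift in 205067_at was -0.55 (SE 0.27, 95% interval -1.14 to 0.04, unadjusted p = 0.0641 and adjusted p = 0.697 in limma). It was -0.34 without TCI04 replicate 3, and between -0.76 and -0.34 with any 1 array left out. In 39402_at the signals were 83.5, 65.5 and 91.9 with PBS and 78.5, 97.0 and 77.9 with TCI04. All TCI04 arrays lay above PBS replicate 2, and the log2 fold change was 0.07 (95% interval -0.45 to 0.59, adjusted p = 0.953 in limma; 0.12 without TCI04 replicate 3), 0.62 higher than that of the other probe set. This difference between the probe sets was not tested.

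IL1A encodes the interleukin-1 that is active without caspase-1 and can stay bound to the cell. In 208200_at the signals were 90.4, 24.0 and 31.3 with PBS and 33.4, 34.8 and 28.7 with TCI04. PBS replicate 1 was far above the other 5 arrays, which lay between 24.0 and 34.8. The resulting log2 fold change was -0.30 (SE 0.43, 95% interval -1.25 to 0.65, adjusted p = 0.876 in limma), and -0.24 without TCI04 replicate 3. Without PBS replicate 1 the mean fell below the filter and the probe set could not be tested. The other probe set, 210118_s_at, was too dim to test, at 45.4, 48.4 and 13.4 with PBS and 15.5, 9.37 and 46.9 with TCI04. High and low signals occurred in both groups there, and PBS replicate 1 was high in both IL1A probe sets.

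IL6 (205207_at), the ligand that activates STAT3 through gp130, gave signals of 112, 111 and 224 with PBS and 113, 171 and 111 with TCI04. PBS replicate 3 and TCI04 replicate 2 were high, and the other 4 arrays lay within 111 to 113. Between the groups IL6 differed by -0.12 on the log2 scale (SE 0.28, 95% interval -0.74 to 0.51, adjusted p = 0.929 in limma). The sign rested on PBS replicate 3, without which it was 0.19. Without TCI04 replicate 3 it was -0.02.

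LIF (205266_at), the other ligand of gp130 here and a cytokine named for inhibiting leukaemia cells, was the most precisely measured member. The signals were 892, 895 and 938 with PBS and 881, 867 and 878 with TCI04. All TCI04 arrays were below all PBS arrays, which made LIF the only one of the 14 probe sets whose groups did not overlap, while 8.19% of all probe sets tested had groups apart in this direction. Toward higher values with TCI04 none of the 14 did, beside 5.35% of all probe sets tested. The difference was small, with means of 908 ± 25.4 and 875 ± 7.15 (SD, n = 3 each) and a log2 fold change of -0.05 (SE 0.08, adjusted p = 0.882 in limma). On the deposited scaling, the 95% interval from -0.23 to 0.12 held a fall of up to 1.17-fold and a rise of up to 1.09-fold. With arrays centred on their medians the log2 fold change turned to 0.11, below the median of 0.13 of all probe sets in that setting. Without TCI04 replicate 3 it was -0.06.

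IL24, a cytokine of the IL10 family that signals through IL20RB paired with IL20RA or IL22RA1, had its only probe set (206569_at) below the filter. The signals were 10.2, 40.9 and 40.4 with PBS and 62.1, 3.09 and 30.2 with TCI04. The TCI04 arrays spanned 20.1-fold among themselves and enclosed the PBS arrays. With no filter on dim probe sets, 0 of the 14 member probe sets passed and the smallest adjusted p was 0.758 (limma), that of IL1B in 205067_at. The log2 fold changes of the 4 dim probe sets in that fit were -0.14 for IL24, -0.46 for IL1A, and -0.23 and -0.64 for CXCL2.

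**Figure D2:**
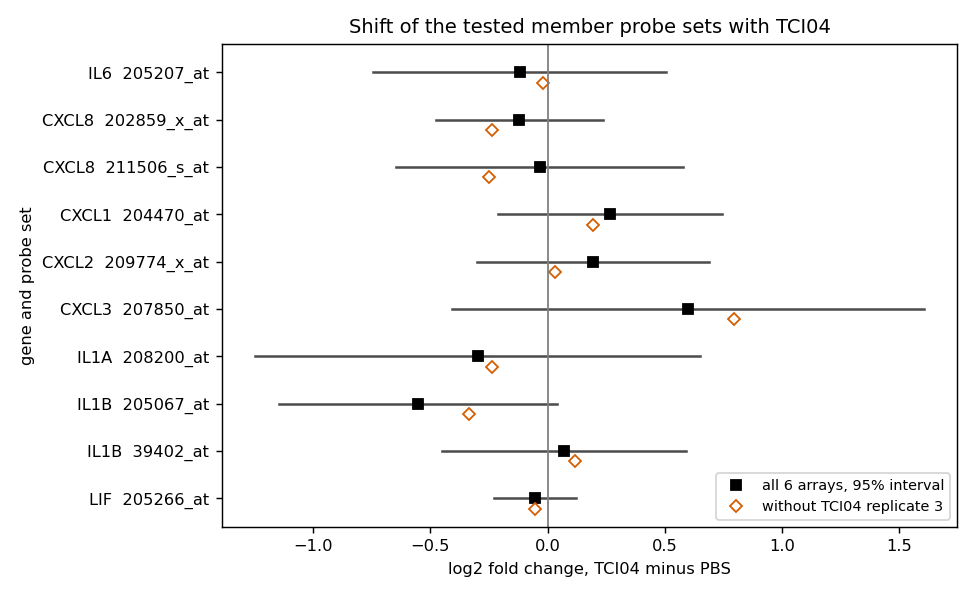
Log2 fold change (TCI04 minus PBS) of the 10 tested probe sets, with squares and 95% intervals from all 6 arrays and open diamonds for the value without TCI04 replicate 3. All 10 intervals include 0. The narrowest is that of LIF (-0.23 to 0.12) and the widest that of CXCL3 (-0.41 to 1.61).

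The intervals give the precision that 3 arrays per group reached. For 7 of the 10 tested probe sets the 95% interval lay within 2-fold in either direction, and for 2 (LIF and 202859_x_at of CXCL8) within 1.5-fold. A fall of more than 2-fold remained within the interval for 208200_at of IL1A and 205067_at of IL1B, and a rise of more than 2-fold for CXCL3. The median half-width was 0.56 on the log2 scale, wider than the 0.37 over all probe sets tested.

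The members differed in which array was highest. The highest signal of a probe set was in PBS replicates 1, 2 and 3 for 3, 3 and 2 of the 14 probe sets, and in TCI04 replicates 1, 2 and 3 for 1, 2 and 3. The lowest signal was in TCI04 replicate 2 for 5 probe sets, in PBS replicate 2 for 4 and in PBS replicate 3 for none. PBS replicate 1 was the highest array for 208200_at of IL1A (1.08 above the probe set mean on the log2 scale) and the lowest for CXCL3 (-1.37), and PBS replicate 3 was the highest for IL6 (0.69).

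**Figure D3:**
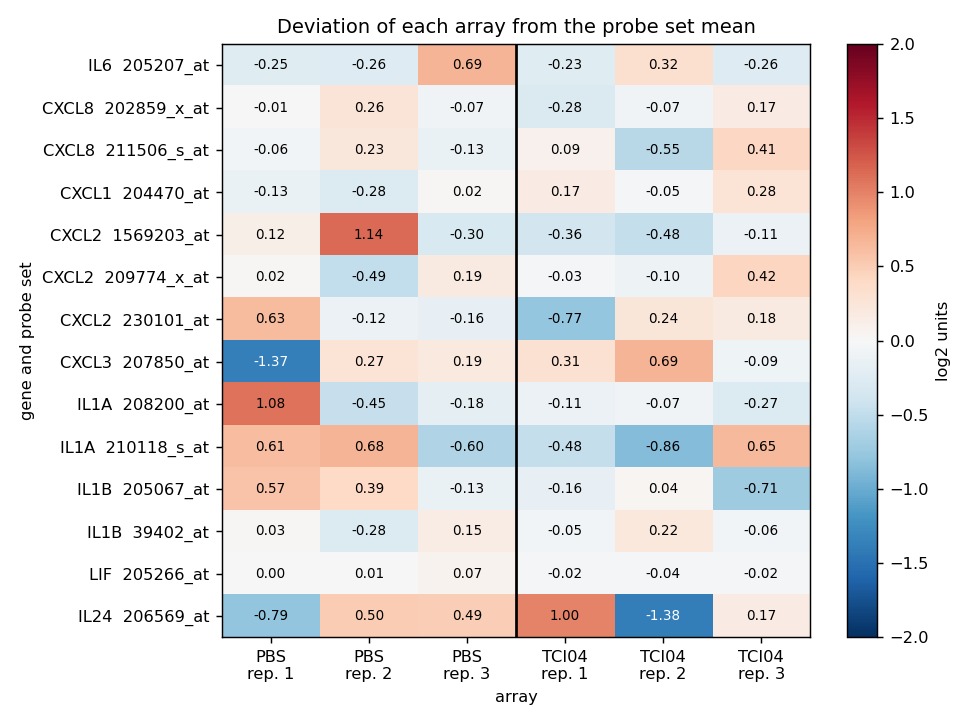
Deviation of each array from the mean of its probe set, in log2(signal + 10.96) units, for the 14 probe sets (rows) on the 3 PBS and 3 TCI04 arrays (columns). Examples are 1.08 for 208200_at of IL1A and -1.37 for CXCL3, both in PBS replicate 1, and 0.999 and -1.38 for IL24 in TCI04 replicates 1 and 2, while LIF stays between -0.04 and 0.07.

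The wider pathway was read from 6 lists of genes, grouped by role, each gene represented by its brightest probe set. Only FOS passed in them, as in the whole table, where 0.00731% of 13679 genes passed. An unadjusted p under 0.05 (limma) was found for 958 of the 13679 genes. In the lists it was found for 2 of 10 tested receptors and 1 of 13 other cytokines and chemokines. It was also found for 1 of 15 inhibitors, processing enzymes and decay regulators, and for 3 of 20 transcription factors, FOS included. Of the 12 signalling and 11 co-induced genes, 0 had such a p. Of 16 receptors of these and related cytokines, 10 were tested, 0 passed and 5 were higher on average with TCI04. Their median log2 fold change was 0.00, the same as over all genes tested (-0.00). IL6ST, the shared subunit gp130, measured 5771 ± 284 with PBS and 6030 ± 200 with TCI04 (SD, n = 3), a log2 fold change of 0.06 (95% interval -0.07 to 0.20), and OSMR, which pairs with it for oncostatin M, had 0.12. Other tested probe sets of IL6ST gave -0.39 to 0.05, and those of OSMR -0.12 to -0.09.

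LIFR, the subunit that binds LIF, gave 698, 490 and 575 with PBS and 764, 700 and 721 with TCI04. Every TCI04 array was above every PBS array, as in 5.35% of all probe sets tested. Its log2 fold change was 0.32 (95% interval 0.04 to 0.60), with an unadjusted p of 0.0294 and an adjusted p of 0.697 (limma), and its other 3 tested probe sets gave 0.06 to 0.52. IL1RAP, the signalling partner of the interleukin-1 receptor, named after its value was seen, gave 141, 140 and 174 with PBS and 234, 210 and 207 with TCI04. Its groups did not overlap either. Its shift was 0.49 (95% interval 0.13 to 0.85, unadjusted p = 0.0119 and adjusted p = 0.697 in limma), and its other tested probe set gave 0.24. Neither receptor passed in any of the 17 other settings, and both kept a positive sign in all of them.

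Of 32 other cytokines and chemokines, 13 were tested, 0 passed and 6 were higher on average (median -0.00). The 3 with the highest levels were CCL2, a monocyte chemokine, with a log2 fold change of -0.08 (95% interval -0.25 to 0.08), IL18, an interleukin-1 family cytokine, with 0.24 (-0.01 to 0.49) and CSF1, the macrophage growth factor, with 0.11 (-0.22 to 0.45). CCL26, an eosinophil chemokine named after its value was seen, had -0.56 (limma, unadjusted p = 0.0438, adjusted p = 0.697). Without TCI04 replicate 3 the value of CCL26 was -0.37. Among 18 inhibitors, processing enzymes and regulators of mRNA decay, 15 were tested, 0 passed and 10 were higher on average (median 0.04). The brightest of these were the protease CAPN2 (calpain 2) at -0.03 and the RNA-binding proteins HNRNPD (AUF1) at 0.00 and ELAVL1 (HuR) at -0.01. Dimmer tested probe sets gave -0.04 for CAPN2, -0.98 to 0.15 for HNRNPD and 0.03 to 0.10 for ELAVL1. ZFP36L1, which promotes the decay of AU-rich mRNAs and was named after its value was seen, had 0.17 (limma, unadjusted p = 0.0266, adjusted p = 0.697), while its other probe sets gave -0.72 to 0.12.

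The signalling list had 12 of 13 genes tested, 0 passed and 7 were higher on average (median 0.00). Its brightest members were the phosphatase PTPN11 at 0.01, the interleukin-1 receptor kinase IRAK1 at -0.04 and the kinase JAK1 at 0.00. Their other tested probe sets gave -0.60 to 0.14 for PTPN11, -1.05 for IRAK1 and -0.47 to -0.06 for JAK1. The next list held 21 NF-kB genes and other transcription factors chosen for these promoters, whose binding was not measured. Of these, 20 were tested, 1 passed toward lower and 0 toward higher values, and 10 were higher on average (median 0.00). FOS was lower with TCI04 at 512 ± 44.8 against 1151 ± 56.8 with PBS (SD, n = 3; log2 fold change -1.15, limma, adjusted p = 0.00611). That call was lost without any 1 of the PBS arrays, without TCI04 replicate 1 or 2, with median centring, without a variance trend and in an ordinary t-statistic. The log2 fold change of FOS stayed between -1.22 and -0.995 in all 17 other settings.

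JUN and CEBPB, from the same list as FOS, had log2 fold changes of 0.01 and 0.02, and other tested probe sets of JUN gave -0.18 to 0.19. FOSL1, an AP-1 subunit related to FOS, had 0.15 (limma, unadjusted p = 0.0335, adjusted p = 0.697). The other gene of that list with an unadjusted p under 0.05 was CHUK (IKK alpha), named after its value was seen, at 0.20. Of 17 genes often induced together with these cytokines, 11 were tested, 0 passed and 4 were higher on average (median -0.00). PLAU, the urokinase gene, had 0.02, the cyclin gene CCND1 -0.12 and TNIP1, an inhibitor of NF-kB signalling, -0.00. Each had a further tested probe set, at -0.31 for PLAU, -0.36 for CCND1 and -0.40 for TNIP1.

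**Figure D4:**
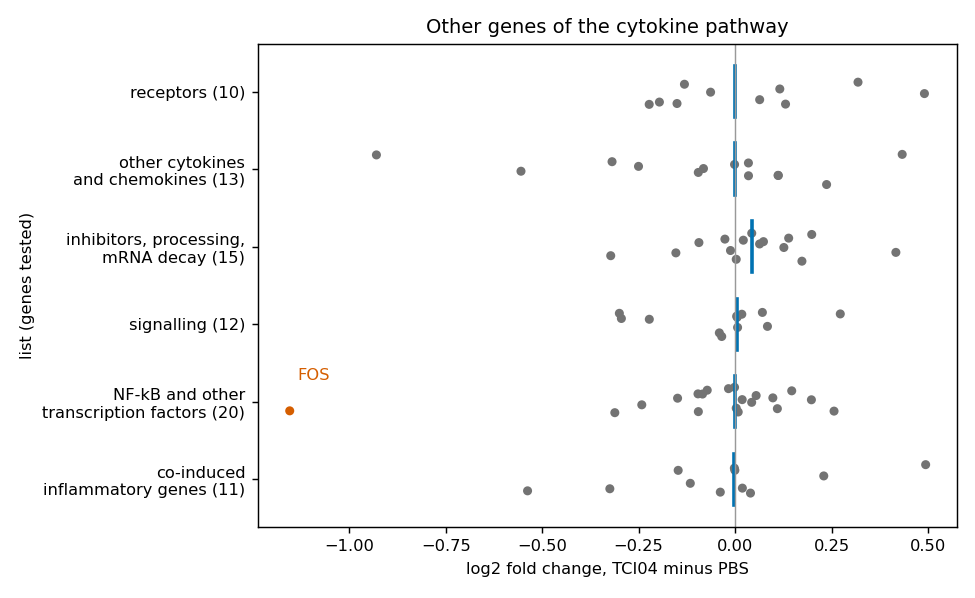
Log2 fold change (TCI04 minus PBS) of each tested gene in the 6 lists, with the number of genes tested in parentheses, vertical bars at the list medians and random vertical scatter for legibility. The medians lie between -0.00 and 0.04, and FOS at -1.15 is the only point past the adjusted threshold.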

How the data were processed

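The authors deposited 1 intensity value per probe set and array, on a linear scale, for 6 arrays. The submitters' processing notes name MAS5. The software version and detection calls are not given in the sources used here. Members and lists were chosen with earlier results of these data known. By the platform annotation, 41097 probe sets had 1 symbol, 1801 had several and 11777 had none, and probe sets with several were not used.

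Analysis used log2(signal + 10.96), where 10.96 is the 20th percentile of the table. The 62 control probe sets and those with a mean log2 value below the 40th percentile were left out. The whole table was fitted with limma 3.58.1 (R 4.3.3), using lmFit and trended eBayes with two-sided tests and Benjamini-Hochberg adjustment at 0.05. Intervals of 95% used 10.5 degrees of freedom. Steps were tested on simulated data. The text names all members, the 3 brightest and any passing genes of each list, the markers, and list genes with an unadjusted p under 0.05, which are said to be named after their values were seen unless they were among the brightest. Alternatives changed the scaling, the offset, the filter, the eBayes settings, array weights, the replicate block, the arrays used, the test and the choice of probe set. Promoters were searched in Python 3.11.15 for the longest word common to the CXCL members and for the AP-1 motif. The number of arrays limits the precision.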

Additional observations from a re-analysis of the deposited data

How the results depend on the processing

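All alternatives were planned, and in none of 163 values of member probe sets did a member pass. Of the 10 tested member probe sets, 4 (CXCL1, CXCL3, IL1A and 205067_at of IL1B) did not change sign under any alternative in which they were tested. Quantile normalization moved the members' median log2 fold change to 0.04, turned CXCL8 (211506_s_at) to 0.10, and gave CAPN2 0.0034, JAK1 -0.030, CEBPB -0.0073 and JUN -0.0049. Median centring moved that median to 0.12 and gave IL6 0.041, CXCL8 0.039 (202859_x_at) and 0.127 (211506_s_at), LIF 0.107, CCL2 0.078, ELAVL1 0.148, CAPN2 0.133, IRAK1 0.119, TNIP1 0.159 and CCND1 0.043. Array weights gave JAK1 -0.024, PTPN11 -0.015 and CEBPB -0.0036. The number of lower probe sets over the whole table, and of passing genes in the transcription factor list (FOS in each case), went from 1 to 0 with median centring, eBayes without trend and the ordinary t-statistic, and was 0 or 1 when any array was left out.

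With each array left out in turn, the members' median ranged from -0.066 to 0.066, IL6 from -0.31 to 0.19, CXCL8 (211506_s_at) from -0.25 to 0.23, CXCL2 from -0.0054 to 0.34 and IL1B (39402_at) from -0.052 to 0.16. Among list genes the ranges were -0.018 to 0.25 for CSF1, -0.062 to 0.058 for JAK1, -0.034 to 0.037 for PTPN11, -0.047 to 0.068 for CEBPB, -0.055 to 0.047 for TNIP1, -0.042 to 0.050 for PLAU, -0.061 to 0.018 for ELAVL1, -0.029 to 0.023 for HNRNPD, -0.019 to 0.050 for JUN, -0.070 to 0.00019 for CAPN2 and -0.21 to 0.056 for CCND1. Averaging the probe sets of a gene gave -0.08 for CXCL8 and -0.24 for IL1B. With the _x_at and _s_at probe sets dropped, no probe set above the filter remained for CXCL8 or CXCL2, so that alternative gave no value for them. Same-numbered arrays deviated together weakly at most (correlations 0.004, 0.062 and 0.050 for replicates 1, 2 and 3). Between differently numbered arrays the correlations were -0.061 to 0.009. The main fit did not take the numbers as pairs. With the replicate block, 0 member probe sets passed and the whole table again had 1 call. Probe sets with an unadjusted p under 0.05 (limma) then numbered 2866, beside 2320 in the main fit.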
